A study of Mus musculus with 4 samples.

Results

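The 10 genes described here, Cntrob, Sun3, Sun5, Spag4, Pmfbp1, Tsga10, Spata6, Cntln, Hook1 and Odf1, encode proteins of the junction that holds the sperm head to its tail. They were taken by symbol from a table of 22274 mouse genes, in which each symbol occurred in 1 line, and all 10 passed the filter on low counts that left 15636 genes for testing. The table holds poly(A) RNA counts from adult testis of 2 Fam170a knockout (KO) libraries and 2 wild-type (WT) libraries. The labels do not give the strain, the exact age, the allele or the part of Fam170a that was removed, nor do they say that replicates are different animals, so the p-values speak for the variation among these 4 libraries alone, part of which could be technical. For KO replicate 2 the genotype is labelled Fam171a instead of Fam170a. Fam170a itself had 1 count in each KO library, against 2240 and 3510 counts in WT replicates 1 and 2.

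During spermiogenesis, in which round haploid spermatids are reshaped into sperm, the centrioles dock at the caudal pole of the nucleus and a coupling apparatus forms around them. SUN domain proteins of the nuclear envelope anchor it on the nuclear side, linker proteins and the segmented columns of the neck fill the gap, and the outer dense fibres continue it into the tail. The manchette, a transient skirt of microtubules, carries material to the neck while the nucleus elongates. Loss of Sun5, Pmfbp1, Spata6, Cntln or Odf1 in mice gives sperm with detached heads, and a truncated Cntrob does so in the rat.

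Cntrob was the coupling gene whose KO level lay farthest from its WT level. Cntrob averaged 7.64 ± 1.24 CPM in KO and 19.8 ± 6.85 CPM in WT (SD, n = 2 each), where CPM are counts over the TMM-scaled library size, expressed per 1000000 counts. The other 9 genes had log2 fold changes, KO over WT, between -0.15 and 0.27. None of the 10 passed edgeR's quasi-likelihood test at an adjusted p under 0.05, a threshold that 0.908% of all tested genes passed (142 of 15636). At an unadjusted p under 0.05, which 24.6% of all tested genes met, 2 members were higher (Sun5 and Tsga10) and 1 was lower (Cntrob). The background was 11.8% for higher and 12.8% for lower genes. DESeq2 called 1 member, Cntrob, with 6.47% of all genes called, and limma-voom called 0 with 0.895%.

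**Figure D1:**
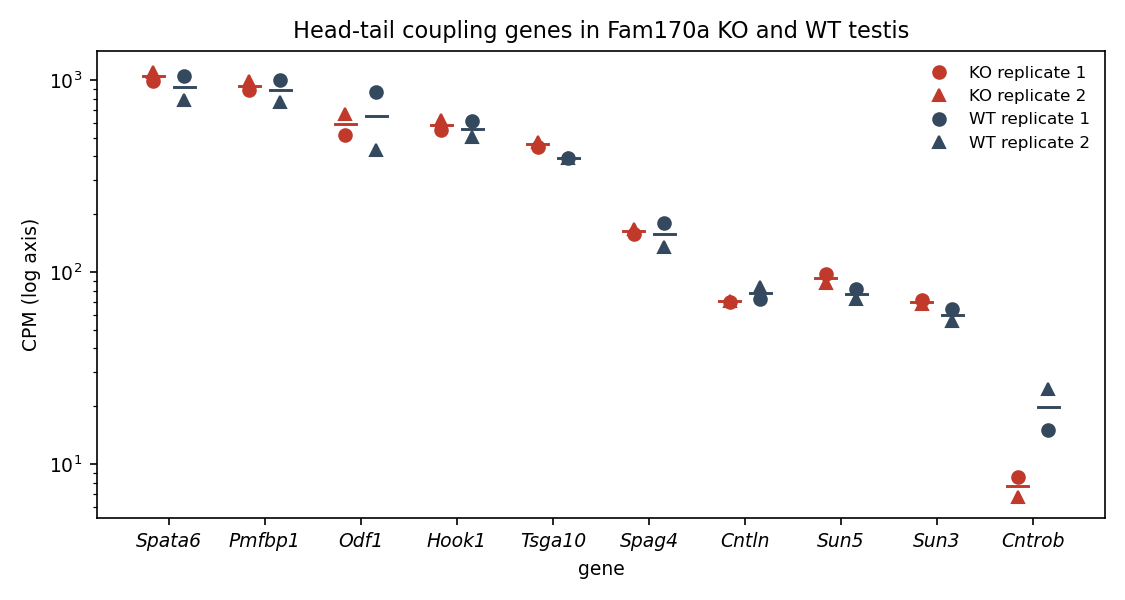
CPM of each gene on a log axis in the KO libraries (red) and the WT libraries (blue-grey), with circles for replicate 1, triangles for replicate 2 and a bar at the mean of each genotype. Genes are placed by WT mean, from Spata6 at 919 CPM to Cntrob at 19.8 CPM, with no correction for gene length, and the gap between genotypes is widest for Cntrob.

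Sequence upstream of the start was available for 7 of the members in a RefSeq promoter table on GRCm38.p6, and it is shown for 3 of them, since these differ in a motif tied to spermatid transcription. The cAMP response element, TGACGTCA, is the site bound by CREM, the activator of many spermatid genes, and TGACG is its short form. Each line below gives the 250 bases before the RefSeq start, 5′ to 3′, in lower case with matches to either motif on either strand in capitals. Spag4 lies at chr2:156064963-156065212 on the forward strand, Spata6 at chr4:111719760-111720009 on the forward strand and Sun5 at chr2:153871085-153871334 on the reverse strand.
Spag4: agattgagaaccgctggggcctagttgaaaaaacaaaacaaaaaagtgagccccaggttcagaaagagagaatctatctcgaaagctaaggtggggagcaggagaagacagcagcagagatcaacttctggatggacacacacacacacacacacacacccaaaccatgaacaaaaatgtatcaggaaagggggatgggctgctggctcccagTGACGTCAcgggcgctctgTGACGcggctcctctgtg
Spata6: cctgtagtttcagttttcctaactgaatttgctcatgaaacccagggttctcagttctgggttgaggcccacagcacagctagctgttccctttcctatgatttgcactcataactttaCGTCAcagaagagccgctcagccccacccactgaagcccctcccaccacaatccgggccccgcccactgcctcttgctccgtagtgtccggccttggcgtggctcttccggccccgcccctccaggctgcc
Sun5: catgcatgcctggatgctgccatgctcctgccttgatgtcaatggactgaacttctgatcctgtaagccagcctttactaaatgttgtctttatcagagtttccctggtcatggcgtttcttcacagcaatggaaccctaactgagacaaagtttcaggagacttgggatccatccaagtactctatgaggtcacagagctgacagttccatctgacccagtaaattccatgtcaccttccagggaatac

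Counted from the RefSeq start, the full element occurred upstream of 1 of the 7 members, Spag4, where it begins 37 bases before that start. It occurs in the same window of 1.55% of 32841 promoter entries (508 entries). Within it TGACG is read on both strands, and a separate TGACG begins 18 bases before the Spag4 start. In Spata6 the short form lies on the reverse strand, 131 bases before the start. The windows of Sun3, Sun5, Tsga10, Cntln and Hook1 hold neither form, and 17.8% of all entries hold TGACG. The RefSeq start lies 1131 bases from the GENCODE gene start for Tsga10 and 139 bases for Hook1, against at most 38 bases for the others. For Spag4 the GENCODE gene begins 38 bases before the RefSeq start. The full element and the separate TGACG of Spag4 therefore lie inside the gene as GENCODE annotates it. Sequence before other starts of these genes was not searched. The short form of the X-box bound by RFX factors, GTTGCC, was in none of the 7 windows and in 10.4% of all entries. These matches are descriptions of letters and were not tested for binding. Spag4, with the full element, and Sun5, without it, are compared below.

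Sun3, Sun5 and Spag4 (also called Sun4) encode the SUN domain proteins of the spermatid nuclear envelope. SUN5 sits at the implantation fossa and holds the coupling apparatus to the nucleus, while SUN3 and SPAG4 belong to complexes that tie the manchette to the nuclear envelope. Sun5 had 98.1 and 87.9 CPM in KO replicates 1 and 2, against 82.0 and 72.4 CPM in WT replicates 1 and 2. Both KO libraries lay above both WT libraries, a separation in this direction that 29.4% of all tested genes showed. Its log2 fold change was 0.27 ± 0.11 (SE), with an edgeR adjusted p of 0.195. Sun3 had 71.5 and 68.0 CPM in KO, against 64.4 and 55.2 CPM in WT. Its genotypes were likewise apart, although they overlapped when libraries were scaled by total counts, and its log2 fold change was 0.22 ± 0.11 (edgeR adjusted p = 0.261). Spag4 had 158 and 167 CPM in KO, against 181 and 135 CPM in WT. Both KO values of Spag4 fell inside the range of the WT values, and the log2 fold change was 0.04 ± 0.15 (edgeR adjusted p = 0.889).

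The ratio of Sun5 to Sun3, which does not depend on library scaling, was 1.37 and 1.29 in KO and 1.27 and 1.31 in WT. That of Sun5 to Spag4 was 0.621 and 0.526 in KO and 0.453 and 0.536 in WT, so the genotypes overlapped in both ratios. Sun3 shares exon sequence with Gm11992, a protein-coding gene on the opposite strand that starts inside it. Gm11992 had 77.0 and 88.8 CPM in KO and 65.8 and 74.6 CPM in WT, with a log2 fold change of 0.24 ± 0.11 (SE) and an edgeR adjusted p of 0.256. No source used here says if reads were counted by strand, so the separate levels of Sun3 and Gm11992 are uncertain. Sun5 (chr2:153856188-153871084) and Spag4 (chr2:156065175-156070617) are annotated on the same chromosome in GENCODE M21 on GRCm38.

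Pmfbp1, Cntln, Spata6 and Tsga10 make up the middle of the junction. PMFBP1 connects SUN5 to the neck, centlein (Cntln) is needed for that link, SPATA6 is required to build the segmented columns and the capitulum, and TSGA10 is a coiled-coil protein linked to headless sperm in men. Tsga10 had 447 and 476 CPM in KO, against 391 CPM in each WT library. It had the tightest WT pair of the 10 genes, with a ratio of 1.001 between the libraries, and both KO libraries lay above it. The log2 fold change was 0.24 ± 0.08 with a 95% interval of 0.05 to 0.43, and the edgeR adjusted p was 0.147. An annotated antisense transcript, Gm26805, overlaps its exons. Cntln had 69.6 and 71.0 CPM in KO, against 72.3 and 83.9 CPM in WT. Its KO libraries lay just below the lower WT library, a separation in that direction shown by 27.9% of all tested genes, and its log2 fold change was -0.15 ± 0.10 (edgeR adjusted p = 0.403).

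Pmfbp1 and Spata6 shared a pattern over the libraries, which Odf1, Hook1 and Spag4 also had. Pmfbp1 had 883 and 982 CPM in KO, against 999 and 765 CPM in WT. Spata6 had 987 and 1101 CPM in KO, against 1051 and 786 CPM in WT. For both genes WT replicate 1 was high and WT replicate 2 was the lowest of the 4 libraries, and the genotypes overlapped. Log2 fold changes were 0.08 ± 0.14 for Pmfbp1 (edgeR adjusted p = 0.765) and 0.18 ± 0.15 for Spata6 (edgeR adjusted p = 0.485). As a share of the CPM summed over the 10 members, Pmfbp1 took 23.3% and 23.2% in KO and 23.0% and 23.5% in WT. Spata6 took 26.0% in each KO library and 24.2% in each WT library.

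Cntrob, Odf1 and Hook1 act on the centriolar and tail side. Centrobin (Cntrob) is a protein of the daughter centriole that is also found on the manchette and at the neck, ODF1 is a main protein of the outer dense fibres, and HOOK1 ties manchette microtubules to other structures and is lost in azh mutant mice, whose sperm heads are misshapen and often detach. Cntrob had 292 and 265 counts in KO, against 390 and 943 counts in WT, the lowest counts of any member. In CPM these were 8.52 and 6.76 in KO, against 14.98 and 24.67 in WT. Both KO libraries lay below both WT libraries, and the WT libraries differed from each other 1.65-fold. Exact Poisson 95% intervals, which cover counting error only, were 13.5 to 16.5 CPM for WT replicate 1 and 23.1 to 26.3 CPM for WT replicate 2, so that the gap within WT was larger than counting error. The log2 fold change was -1.38 ± 0.26, or 0.384 times the WT level, with a 95% interval of -2.03 to -0.73 and an edgeR adjusted p of 0.0855. Of all tested genes 0.985% had a lower log2 fold change, and Cntrob ranked 396 by p.

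The Cntrob value kept its direction under every setting run. Leaving out a library could hardly turn it, since both KO libraries lay below both WT libraries. With all 4 libraries the adjusted p lay between 9.79e-05 (DESeq2) and 0.264 (edgeR with a replicate block). Without WT replicate 1 the log2 fold change was -1.75 (edgeR adjusted p = 5.23e-05) and without WT replicate 2 it was -0.98 (edgeR adjusted p = 0.0174), calls that take the spread from the KO pair alone. These fits called 21.2% and 5.45% of all genes. Without KO replicate 1 it was -1.55 and without KO replicate 2 it was -1.22, and neither passed. DESeq2 gave -1.40 with an adjusted p of 9.79e-05, and edgeR without a filter on low counts gave -1.38 with an adjusted p of 0.028, with 2.3% of all genes called. The ratio of Cntrob to Cntln, both genes of centrosomal proteins, was 0.122 and 0.0953 in KO and 0.207 and 0.294 in WT. The genotypes did not overlap in that ratio, which is free of library scaling.

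**Figure D2:**
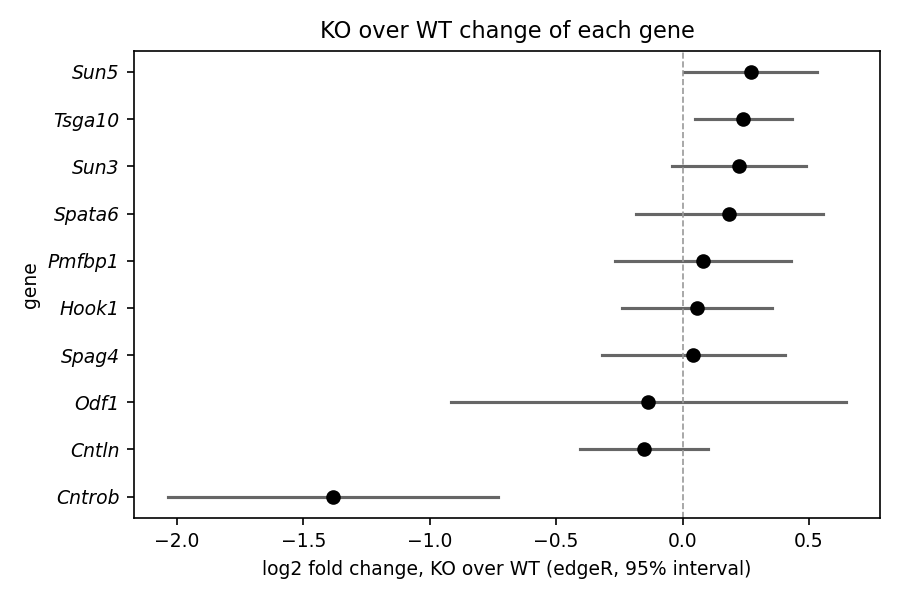
Log2 fold change of each gene, KO over WT, from edgeR (dots), with its 95% interval (lines) and a dashed line at no change. Cntrob lies at -1.38 with an interval of -2.03 to -0.73, the intervals of Sun5 and Tsga10 begin just above 0, and that of Odf1 is the widest, from -0.92 to 0.65.

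Odf1 was the member whose replicates differed most. It had 520 and 665 CPM in KO, against 868 and 434 CPM in WT. The WT libraries were 1.999-fold apart and enclosed both KO libraries, and the log2 fold change was -0.14 ± 0.32 (edgeR adjusted p = 0.830). Without WT replicate 1 Odf1 passed as higher in KO, with a log2 fold change of 0.39 and an edgeR adjusted p of 0.0332. Without WT replicate 2 it passed as lower, at -0.56 (edgeR adjusted p = 0.0253), so its direction rests on which WT library is used. Hook1 had 547 and 616 CPM in KO, against 613 and 505 CPM in WT. The genotypes overlapped, and the log2 fold change was 0.06 ± 0.12 (edgeR adjusted p = 0.809). Exons of Hook1 overlap an annotated noncoding transcript on the opposite strand, 9530080O11Rik.

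In 6 of the 10 members the WT libraries differed from each other by more than the genotypes did, beside 36.2% of all tested genes by a measure not quite alike. These were Cntln, Spata6, Pmfbp1, Odf1, Hook1 and Spag4. The median absolute log2 ratio of the members was 0.16 between KO libraries and 0.33 between WT libraries, beside 0.12 and 0.17 for all tested genes. For all tested genes 1 CPM was added to each library before these ratios, and for the members nothing was added. The addition makes gaps at low CPM smaller, so the 36.2%, 0.12 and 0.17 are low beside the members' values to an unknown degree. Of the 10 members, 8 were higher in WT replicate 1 than in WT replicate 2, the exceptions being Cntrob and Cntln. With WT replicate 1 left out, 4 members passed edgeR's test, Cntrob and Cntln as lower and Spata6 and Odf1 as higher, while 21.2% of all genes passed. The values without that library were -0.31 for Cntln and 0.35 for Spata6, and Spata6 was at -0.020 without WT replicate 2. Pmfbp1, Hook1 and Spag4 were at 0.23, 0.15 and 0.21 without WT replicate 1 and at -0.11, -0.085 and -0.16 without WT replicate 2. Sun3, Sun5, Tsga10, Cntln and Cntrob kept their sign whichever library was left out. These are the members whose KO libraries both lay on the same side of both WT libraries, so leaving out 1 library could hardly turn their sign. Of all tested genes 29.4% had both KO libraries above and 27.9% had both below.

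**Figure D3:**
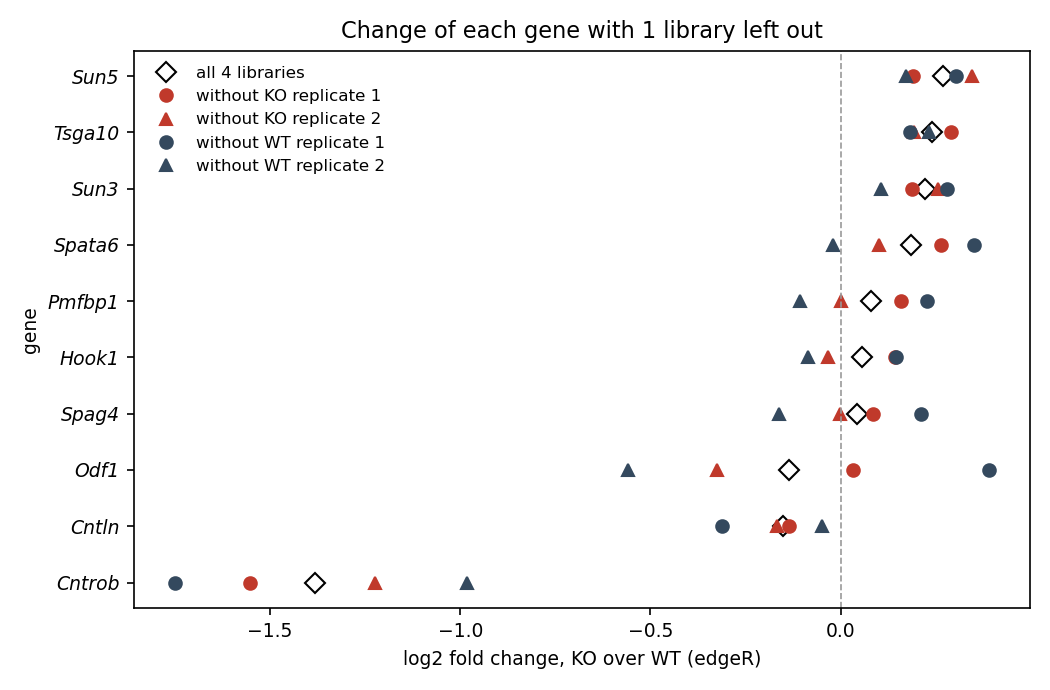
Log2 fold change of each gene, KO over WT, from edgeR with all 4 libraries (open diamonds) and with 1 library left out (red for a KO library, blue-grey for a WT library, circles for replicate 1 and triangles for replicate 2). Odf1 spans -0.56 to 0.39 on the choice of WT library, while Tsga10 stays between 0.18 and 0.29.

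The members' levels can be ordered when CPM are divided by gene length. Per kilobase of all annotated exons, Odf1 was highest in every library, at 471 and 602 in KO and 785 and 393 in WT. Cntrob was lowest, at 1.28 and 1.02 in KO and 2.25 and 3.70 in WT, and Cntln was next to lowest at 9.81 and 9.99 in KO and 10.2 and 11.8 in WT. Odf1 stayed highest and Cntrob and Cntln lowest when the longest protein-coding transcript was used as the length, a measure added after the values were seen. The order of the SUN genes turned with the length. Per kilobase of all exons, means were 75.5 in KO and 62.7 in WT for Sun5, 53.7 in KO and 46.1 in WT for Sun3, and 33.7 in KO and 32.7 in WT for Spag4. Per kilobase of the longest transcript Spag4 was highest, at 110 in KO and 107 in WT, above Sun5 at 80.4 in KO and 66.7 in WT. Spag4 has 8 annotated transcripts, whose exons together span 4831 bases against 1473 in the longest protein-coding transcript. Which transcripts the reads came from was not analysed here.

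Other genes known for the head-tail junction were all slightly positive, and none passed. Of 12 such genes tested, 12 had a positive log2 fold change, around a median of 0.19 beside 0.01 for all tested genes, and 11 were positive with scaling by total counts. Both KO libraries lay above both WT libraries for 5 of the 12 (29.4% of all genes) and below for 0 (27.9%). By edgeR 0 passed (0.908% of all genes). An unadjusted edgeR p below 0.05 was reached by 3 of them, each higher in KO, beside 11.8% of all genes. DESeq2 called 1 (6.47% of all genes) and limma-voom 0 (0.895%). Ccdc42, which encodes a coiled-coil protein of the manchette and the coupling apparatus, had the smallest p. It had 161 and 172 CPM in KO, against 127 and 128 CPM in WT, so the genotypes did not overlap. Its log2 fold change was 0.38 ± 0.08 (edgeR adjusted p = 0.0927), and it was the gene that DESeq2 called, at an adjusted p of 0.0246. The log2 fold change of Ccdc42 was 0.32 without WT replicate 1 and 0.38 without WT replicate 2, each time against a single WT library. Ccdc113, a gene for a ciliary and sperm neck protein, was at 0.28 (edgeR adjusted p = 0.119). Prss21, for a serine protease needed for intact epididymal sperm, was at 0.24 (edgeR adjusted p = 0.18). Without WT replicate 1, 7 of the 12 passed as higher, with Oaz3 at 0.72 and Ccdc188 at 0.65, while 21.2% of all genes passed. Odf2, whose product is the other main outer dense fibre protein, was at 4568 and 5287 CPM in KO and 4932 and 3623 CPM in WT.

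Relatives of the SUN genes and of the complexes they form did not pass either. Of 7 genes 6 were tested, with a median log2 fold change of 0.03. The number called was 0 by edgeR, by DESeq2 and by limma-voom (0.908%, 6.47% and 0.895% of all genes). At an unadjusted p under 0.05, 1 was higher (11.8% of all genes). Syne2, for the large outer membrane partner nesprin-2, had 187 and 202 CPM in KO, against 163 and 162 CPM in WT, with a log2 fold change of 0.26 ± 0.08 and an edgeR adjusted p of 0.139. Syne1, for nesprin-1, was at 0.29 (edgeR adjusted p = 0.255). Sun1, a SUN gene that somatic cells also use, was at 128 and 116 CPM in KO and 125 and 118 CPM in WT (log2 fold change 0.0081, edgeR adjusted p = 0.967). Sun2, likewise used in somatic cells, was at 7.73 and 7.40 CPM in KO and 9.87 and 8.92 CPM in WT (log2 fold change -0.31, edgeR adjusted p = 0.236). Syne4 had at most 0.157 CPM in any library and was not tested.

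Genes for centrioles and their surroundings, to which Cntrob and Cntln belong by function, had no member past the test. Of 19 genes, 12 had a positive and 7 a negative log2 fold change around a median of 0.05, and with scaling by total counts 7 were positive and 12 negative. edgeR, DESeq2 and limma-voom each called 0 (0.908%, 6.47% and 0.895% of all genes). With an unadjusted p under 0.05 there were 4 higher genes (11.8% of all genes) and 1 lower gene (12.8%). Sass6, for the cartwheel protein of new centrioles, was at 0.24 ± 0.08 (edgeR adjusted p = 0.142), Poc1b, a centriole stability gene, at 0.24 (edgeR adjusted p = 0.146), and Cetn1, the testis centrin, at 0.27 (edgeR adjusted p = 0.148). The lowest log2 fold change in this list was -0.49. Cenpj, for a centriole protein, was at -0.27 with all 4 libraries (edgeR adjusted p = 0.27) and at -0.46 without WT replicate 1.

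Of 7 paralogues and binding partners none passed by edgeR, DESeq2 or limma-voom (0.908%, 6.47% and 0.895% of all genes), around a median of 0.10. With an unadjusted p under 0.05 there was 1 higher gene (11.8% of all genes) and 1 lower gene (12.8%). Hook2 had 108 and 114 CPM in KO, against 96.1 and 88.8 CPM in WT (log2 fold change 0.26, edgeR adjusted p = 0.158). Hook3 had 9.60 and 8.48 CPM in KO, against 11.1 and 13.6 CPM in WT (log2 fold change -0.45, edgeR adjusted p = 0.167). These HOOK family genes thus had opposite signs, while Hook1 lay at 0.06 (-0.048 with scaling by total counts), and the differences between them were not tested. Odf4, for another outer dense fibre protein, was at 0.23 (edgeR adjusted p = 0.203). Spata6l was at 0.28 (edgeR adjusted p = 0.252). Without WT replicate 1 the log2 fold changes were -0.65 for Hook3, 0.27 for Odf4 and 0.42 for Spata6l.

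In bulk RNA, fewer cells of a type and less RNA per cell cannot be told apart. Markers of elongating spermatids, among them the protamine genes, summed to 3004 and 5311 CPM in KO and 7448 and 2413 CPM in WT. That is the order of the 4 libraries that Odf1, Pmfbp1 and Spag4 also had, with WT replicate 1 highest and WT replicate 2 lowest. Of the 7 markers, 0 passed by edgeR, DESeq2 or limma-voom, or at an unadjusted p under 0.05. Markers of spermatocytes summed to 644 and 582 CPM in KO and 849 and 1074 CPM in WT, and those of spermatogonia to 58.8 and 54.7 CPM in KO and 72.5 and 90.8 CPM in WT. In both lists 6 of 7 genes were lower in both KO libraries, as were 27.9% of all genes tested, and 5 spermatocyte and 3 spermatogonial markers were lower at an unadjusted p under 0.05 (12.8% of all genes). By edgeR 1 passed in each list (0.908% of all genes), Piwil1 at a log2 fold change of -1.61 (adjusted p = 0.00713) and Id4 at -1.05 (adjusted p = 0.05, under the threshold before rounding). DESeq2 called 5 spermatocyte and 2 spermatogonial markers (6.47% of all genes), and limma-voom called 1 and 0 (0.895% of all genes), so that Id4 was not called by limma-voom. Cntrob had the same order of libraries as both of these sums, with WT replicate 2 highest and KO replicate 2 lowest. Over the mean of the 4 libraries Cntrob ranged from 0.493 to 1.8. The spermatocyte sum ranged from 0.739 to 1.36 and the spermatogonial sum from 0.791 to 1.31. How many of all genes share such an order of libraries is not given here. Markers of round spermatids summed to 1327 and 1355 CPM in KO and 1204 and 1103 CPM in WT, with 0 of 7 called by edgeR, DESeq2 or limma-voom. Of these 7, 6 were higher in both KO libraries, beside 29.4% of all genes, and at an unadjusted p under 0.05 there were 5 higher markers, beside 11.8% of all genes. Sun3, Sun5 and Tsga10 were on the same side. The part of these cell types in the values of the coupling genes was not tested.

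**Figure D4:**
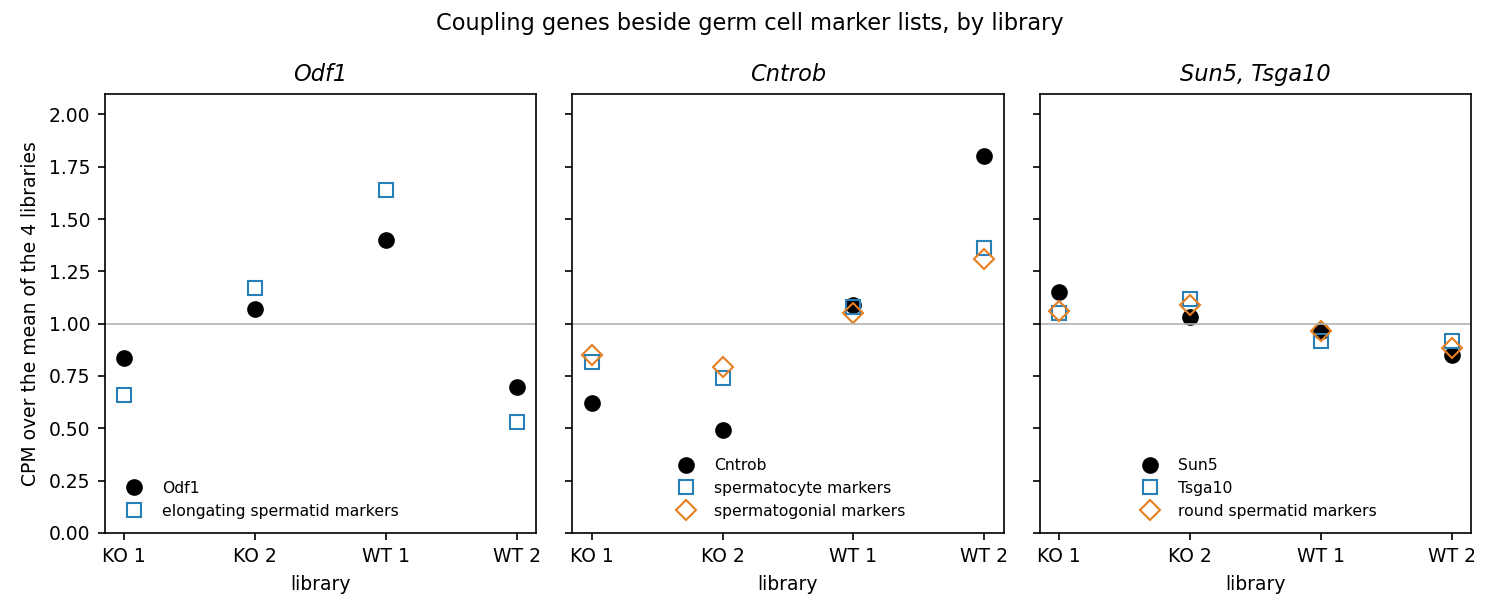
CPM in each library over the mean of the 4 libraries, for Odf1 beside the summed elongating spermatid markers, Cntrob beside the summed spermatocyte and spermatogonial markers, and Sun5 and Tsga10 beside the summed round spermatid markers. Odf1 and its neighbouring list are highest in WT replicate 1 (1.4 and 1.64), and Cntrob and both of its lists are highest in WT replicate 2 (1.8, 1.36 and 1.31).

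Markers of somatic cells were at low levels. Summed markers were 11.3 and 11.6 CPM in KO and 17.5 and 10.3 CPM in WT for Sertoli cells, 6.80 and 5.57 CPM in KO and 16.0 and 9.02 CPM in WT for Leydig cells, and 30.2 and 18.0 CPM in KO and 20.3 and 6.51 CPM in WT for macrophages. Fshr, a defining Sertoli marker, had 0 counts in 1 KO library, and the remaining markers of these lists had counts in every library. None of the somatic markers passed edgeR's test or limma-voom and DESeq2 called 1, a Leydig cell gene (6.47% of all genes). Of the tested markers, 7 were positive and 0 negative for macrophages (median log2 fold change 0.94). For Leydig cells these were 0 and 6 (-0.88), and for Sertoli cells 2 and 4 (-0.68). Both KO libraries lay above both WT libraries for 4 macrophage and 1 Sertoli markers (29.4% of all genes). They lay below for 3 Leydig and 5 Sertoli markers, untested ones included (27.9% of all genes). With an unadjusted p under 0.05 there were 3 lower genes (12.8% of all genes) and 1 higher gene (11.8%).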

How the data were processed

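Testis poly(A) RNA of 2 KO and 2 WT libraries was analysed from the counts per Ensembl gene that the authors deposited, whole numbers with no normalization visible in the values. Tools named in the submitters' processing notes, with no role stated, are HISAT2 2.1.0, Bowtie2 2.2.8, RSEM, StringTie 1.3.1 and fastp 0.18.0. Build, annotation, strandedness and handling of multi-mapping reads: not given in the sources used here. Totals ran from 26029374 to 41684437 counts. Each column was assigned to the sample whose title has its genotype and number. Symbols and positions came from GENCODE M21, which matched 22219 identifiers, and promoters from RefSeq.

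The test was edgeR's (version 4.0.16, R 4.3.3; TMM, filterByExpr at min.count 10 and min.total.count 15, genotype as the only term, two-sided, Benjamini-Hochberg adjustment over 15636 genes) after a test on simulated data. The SE is the size of the log2 fold change over the square root of F, and 95% intervals use the t distribution with the fit's degrees of freedom. DESeq2 1.42.0 and limma 3.58.1 (voom) were alternatives, with other scalings, filters, a replicate block and each library left out in turn. The libraries of each genotype differed beyond sampling noise (chi-square per degree of freedom of 10.4 for KO and 44.3 for WT). All members were named, with the 3 smallest p and any call of each other list. Genes outside that rule (Gm11992, Oaz3, Ccdc188, Odf2, Cenpj, Syne4, Spata6l, Sun1, Piwil1, Id4, Fshr, Gucy2e and Rnf227) were named after their values were seen. The members and lists were chosen with earlier results of these data known.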

Additional observations from a re-analysis of the deposited data

How the results depend on the processing

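All genes called numbered 142, against 82 with total counts, 451 without a filter on low counts, 1011 with DESeq2 and 21 to 3408 with 1 library left out. Members called numbered 0, against 1 without a filter and 1 with DESeq2, both times Cntrob, and 0 to 4 with 1 library left out. The other head-tail junction genes called numbered 1 with DESeq2, and with 1 library left out 0 to 7, beside 0 to 1 of the centriole genes and 0 to 3 of the paralogues and partners. With 1 library missing, the spread comes from the complete pair, and the single library is taken to vary as much. The members' median log2 fold change of 0.07 lay between -0.067 and 0.22 with 1 library left out. Total counts moved the median of all genes from 0.01 to -0.10 and turned Pmfbp1 (-0.023), Hook1 (-0.048) and Spag4 (-0.059). With 1 library left out, values ran from -0.020 to 0.35 for Spata6, -0.11 to 0.23 for Pmfbp1, -0.56 to 0.39 for Odf1, -0.085 to 0.15 for Hook1 and -0.16 to 0.21 for Spag4. Apart from the libraries left out, whose effect is seen in their values, the cause of these moves was not tested.

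Deviations from the genotype means correlated at -0.109 between same-numbered libraries and at 0.109 between cross-numbered ones, over 15636 genes. With 2 libraries per genotype these are the same number with its sign turned. It is weak and cannot settle whether the libraries were paired. With a replicate block 9 genes and 0 members were called. With the numbers crossed, a fit chosen after seeing the data, 902 genes, 1 member and 1 other head-tail junction gene were called.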

Other observations

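Genes around Cntrob were looked at after its values were seen. Of 9 tested genes within 100000 bases of it on chromosome 11, 0 passed by edgeR or limma-voom and 1, Rnf227, by DESeq2, which called 6.47% of all genes tested. With an unadjusted p under 0.05 there were 2 lower genes (12.8% of all genes), and 4 had both KO libraries below both WT libraries (27.9% of all genes). Gucy2e had both KO libraries above both WT libraries (29.4% of all genes), at 0.963 and 0.689 CPM in KO, against 0.576 and 0.445 CPM in WT. The value nearest to that of Cntrob was that of Rnf227, a gene of low level with 2.28 and 2.09 CPM in KO, against 3.995 and 6.98 CPM in WT, with a log2 fold change of -1.34 ± 0.31 (SE) and an edgeR adjusted p of 0.102.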
